A study of Mus musculus with 6 samples.

Results

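The 9 genes described here encode the cytoplasmic intermediate filament proteins of glial cells and neurons, and were taken by their Ensembl identifiers from the 35275 genes of the deposited spinal cord tables. The glial genes were Gfap, Vim, Nes and Synm, and the neuronal genes were Nefl, Nefm, Nefh, Ina and Prph. Gfap encodes glial fibrillary acidic protein, the main filament of mature astrocytes. Vim and Nes encode vimentin and nestin, which are abundant in neural progenitors and in reactive glia, and Synm encodes synemin, which joins filaments built by other members. Nefl, Nefm and Nefh encode the light, medium and heavy neurofilament subunits of axons, Ina encodes alpha-internexin, and Prph encodes peripherin, which is found mainly in neurons that project to the periphery. Intermediate filaments form from paired rod-shaped subunits, carry no polarity, and give cells and axons mechanical strength and calibre. Nefm, Nefh and nestin have long tails and are built into filaments together with a partner that can polymerise.

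Poly(A) RNA was measured in whole spinal cord of C57BL/6 mice, 3 per group. Sox2 cKO mice were mGfap-Cre:Sox2fl/fl, in which Cre under the mouse Gfap promoter removes the transcription factor gene Sox2 from most astrocytes. Control (Ctrl) mice were labelled mGfap-Cre:Sox2+/+, although the series' design also allows controls with the floxed allele alone and the paper names Sox2fl/fl littermates, so that Cre may not be shared by all animals. The age was given as P90 in one label and P80 in another. The promoter that drives Cre is that of one of the 9 genes. Columns of the deposited tables are only numbered, with 2, 4 and 6 read as Ctrl and 1, 3 and 5 read as Sox2 cKO. Values of single libraries are given in that order.

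Libraries held 21507911 to 28392184 counts on genes, and 16137 genes, all 9 filament genes among them, passed the filter on low counts. Counts were scaled to a common library size with TMM factors (CPM). Differences were taken from the quasi-likelihood fit of edgeR, with Benjamini-Hochberg adjustment over all 16137 genes. Sox2 had 19.9, 14.8 and 29.5 CPM in Ctrl and 3.16, 2.69 and 2.98 CPM in Sox2 cKO, so that the deleted gene followed the group labels. Ctrl library 2 stood apart from the other controls. Its counts differed from those of Sox2 cKO libraries 3 and 5 by a chi-square per degree of freedom of 14.7 and 10.8. Against Ctrl libraries 4 and 6 the values were 24.95 and 29.2. The value against Sox2 cKO library 1 lay between those against Ctrl libraries 4 and 6, so Ctrl library 2 was not nearer to every Sox2 cKO library. Fold changes without Ctrl library 2 are therefore given for each of the 9 filament genes. Motor neuron markers were present in all libraries, with Chat at 33.3 ± 2.42 CPM (SD, n = 3) in Ctrl. Which library came from which animal is not given, and p-values measure the spread between these libraries.

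The glial genes other than Vim were lower in Sox2 cKO, so the promoters of these genes are shown beside that of Vim. RefSeq promoters of build GRCm38.p6 were matched for 6 of the 9 genes (Gfap, Vim, Nes, Synm, Ina and Prph), and the 250 bases before the RefSeq start are used here. The gene ranges given below come from GENCODE and begin further upstream for Gfap, Vim and Nes. The Gfap and Vim windows therefore lie inside those ranges, and the Nes window lies partly inside. The sequences below run 5′ to 3′ on the strand of the gene, and capitals mark a TATA box (TATAAA) or a CCAAT box (CCAAT, or ATTGG where it lies on the other strand). None of the capitals overlap. The Gfap window is chr11:102897201-102897450 (minus strand), the Nes window chr3:87970843-87971092 (plus strand), the Synm window chr7:67759743-67759992 (minus strand) and the Vim window chr2:13574061-13574310 (plus strand).
Gfap: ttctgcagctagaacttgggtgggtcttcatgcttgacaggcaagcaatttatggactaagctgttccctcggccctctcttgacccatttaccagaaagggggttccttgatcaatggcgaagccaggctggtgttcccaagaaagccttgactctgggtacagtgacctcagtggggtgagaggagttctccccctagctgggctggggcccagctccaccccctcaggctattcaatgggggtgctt
Nes: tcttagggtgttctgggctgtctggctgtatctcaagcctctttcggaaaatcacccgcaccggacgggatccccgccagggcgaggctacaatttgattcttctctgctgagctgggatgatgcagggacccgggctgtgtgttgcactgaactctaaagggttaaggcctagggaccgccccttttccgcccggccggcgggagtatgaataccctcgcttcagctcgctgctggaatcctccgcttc
Synm: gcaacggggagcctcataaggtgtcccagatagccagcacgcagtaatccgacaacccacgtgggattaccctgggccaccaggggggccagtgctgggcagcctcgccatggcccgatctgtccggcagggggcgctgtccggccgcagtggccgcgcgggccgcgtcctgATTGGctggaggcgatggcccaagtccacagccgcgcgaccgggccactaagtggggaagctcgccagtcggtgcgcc
Vim: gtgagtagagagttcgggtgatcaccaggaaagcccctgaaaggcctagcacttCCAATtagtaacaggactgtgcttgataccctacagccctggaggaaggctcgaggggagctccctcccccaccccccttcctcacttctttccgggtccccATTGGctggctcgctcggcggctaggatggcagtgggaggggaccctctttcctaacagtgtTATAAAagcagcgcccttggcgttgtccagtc
The Vim window held 1 TATAAA and 2 CCAAT, the Synm window held 1 CCAAT, and the Gfap and Nes windows held neither. Over both strands, TATAAA was found in 12.4% and CCAAT in 33.8% of the 32851 RefSeq promoter windows of this length. CAAAG, the core letters of many SOX motifs, was found in 48.6% of all windows and in 0 of the 6 member windows, which says only that these letters are not in this stretch. Of the other windows matched, Prph held 1 TATAAA and no CCAAT, and Ina held neither.

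In controls, the neuronal and glial main subunits were at similar levels. FPKM, the authors' count scaled to gene length and to the library total, allows levels of different genes to be compared. Nefm (1157 ± 88.2 FPKM, SD, n = 3) and Gfap (1032 ± 189 FPKM) headed the order in Ctrl, with ranges that overlapped, although Nefm was above Gfap in 3 of 3 libraries. Nefh (530 ± 57.02 FPKM) and Nefl (438 ± 26.5 FPKM) followed, also with overlapping ranges. Ina (106 ± 4.63 FPKM), Prph (45.6 ± 2.64 FPKM), Vim (28.6 ± 1.65 FPKM), Synm (22.7 ± 1.92 FPKM) and Nes (4.27 ± 0.547 FPKM) came after, each with a range that did not overlap the next. In Sox2 cKO spinal cord, Gfap (513 ± 75.4 FPKM) overlapped Nefl (489 ± 25.9 FPKM) and not Nefm (1021 ± 44.9 FPKM). Nefl stood above Nefh (415 ± 11.4 FPKM) in 3 of 3 Sox2 cKO libraries, whereas Nefh stood above Nefl in 2 of 3 Ctrl libraries. The other 5 genes kept their places.

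Of the 9 filament genes, 4 were significantly lower in Sox2 cKO spinal cord (Gfap, Nes, Synm and Nefh), 0 were higher, and 5 did not pass the test. Among all tested genes, 24.6% passed it, 12.4% lower and 12.2% higher. That balance moved with the method. With upper quartile scaling in place of TMM, edgeR called 1652 genes lower and 2313 higher. With limma on log2(FPKM + 1), which also changes the test and the filter (14756 genes), 915 genes were lower and 2670 were higher. The same 4 filament genes were called in both. By CPM, the groups did not overlap for 6 of the 9 genes (the 4 named with Nefm and Ina), all lower in Sox2 cKO, against 44.7% of all tested genes in either direction (22.1% lower and 22.6% higher). The unadjusted p from edgeR was below 0.05 for 5 of the 9 genes, against 6391 of all 16137 genes. DESeq2 called 5 of the 9 genes, with Nefm as the fifth, where it called 27.7% of all genes (15.0% lower and 12.7% higher).

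**Figure D1:**
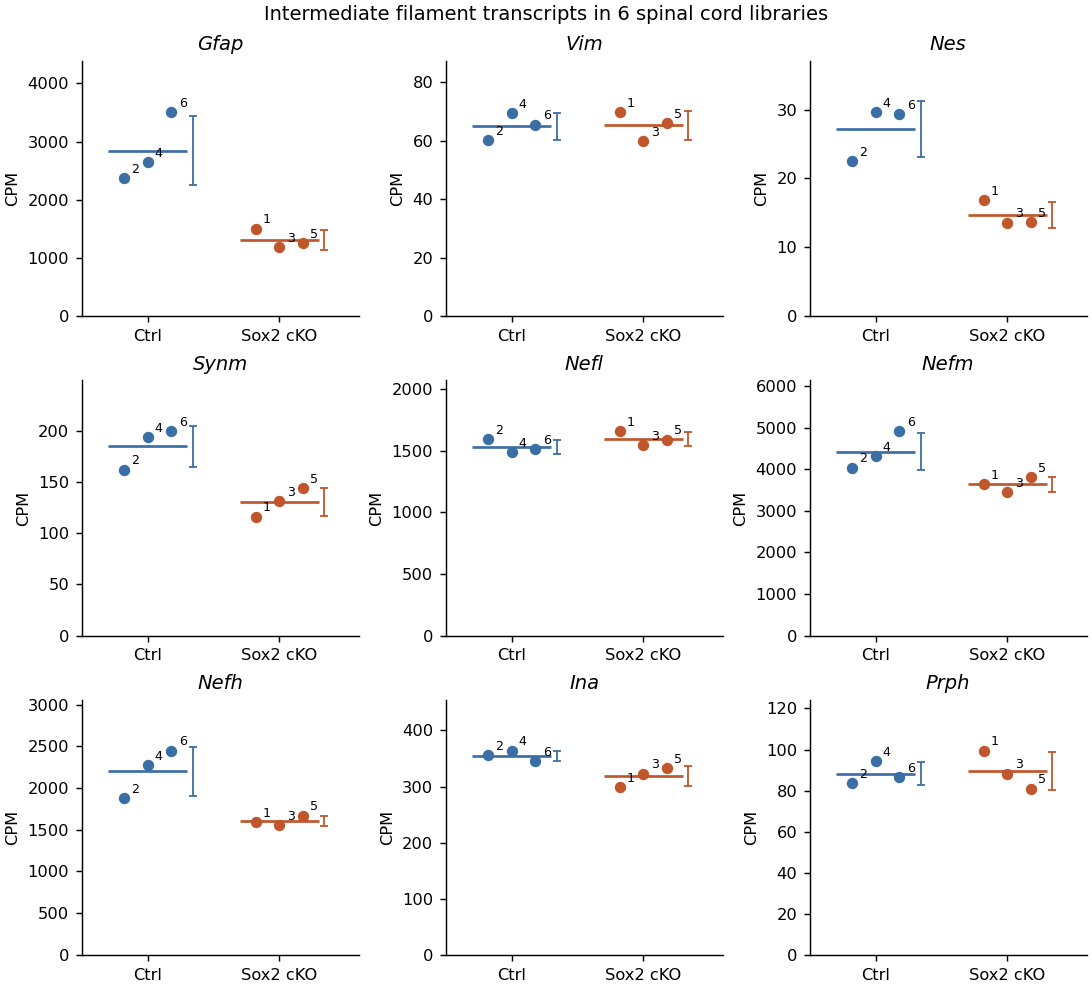
Each panel plots CPM (counts scaled to a common library size, linear axis from 0) of 1 filament gene in the 3 Ctrl and 3 Sox2 cKO libraries, numbered by library, with the group mean as a line and the SD as a bar. Gfap, Nes, Synm, Nefm, Nefh and Ina show no overlap between groups, and Vim, Nefl and Prph overlap.

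Gfap, the astrocyte filament gene, fell to 46.2% of its Ctrl mean. It lies on chromosome 11 of mm10 from 102887336 to 102900912 (ENSMUSG00000020932, minus strand). Its level was 2373, 2643 and 3506 CPM in Ctrl and 1500, 1185 and 1251 CPM in Sox2 cKO. The groups were wide apart, and Ctrl library 6 and Sox2 cKO library 1 were the highest of their groups. The log2 fold change was -1.11 (SE 0.15, 95% interval -1.44 to -0.79, adjusted p = 0.010 from edgeR), and only 0.415% of all tested genes had a more negative fold change. It was -1.23 without Ctrl library 2, and the adjusted p became 0.059 without Sox2 cKO library 1 although the fold change was then -1.22. Without that Sox2 cKO library, edgeR called 8 of 16482 genes. In RNA of whole tissue, fewer astrocytes and less Gfap RNA per astrocyte cannot be told apart.

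Nes, the gene of nestin, fell to 54.2% of its Ctrl mean and had the lowest FPKM of the 9 genes. It lies on chromosome 3 from 87971078 to 87980451 (ENSMUSG00000004891, plus strand). It had 22.5, 29.6 and 29.4 CPM in Ctrl and 16.9, 13.6 and 13.7 CPM in Sox2 cKO, with between 362 and 713 counts a library. The groups did not overlap, and Ctrl library 2 was the lowest control. The log2 fold change was -0.89 (SE 0.13, adjusted p = 0.012 from edgeR) and was -1.01 without Ctrl library 2. Without Ctrl library 4 or Sox2 cKO library 1 the adjusted p from edgeR was 0.065 or 0.060.

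Synm, the gene of synemin, which links vimentin and desmin filaments to other structures, fell to 70.4% of its Ctrl mean. It lies on chromosome 7 from 67730160 to 67759742 (ENSMUSG00000030554, minus strand) and, with 7866 bases, had the longest transcript model of the 9. Of its exon bases, 1.06% are shared with Ttc23 and 5.37% with Gm45102 on the other strand. It had 163, 194 and 200 CPM in Ctrl and 117, 131 and 144 CPM in Sox2 cKO. The groups did not overlap, and Ctrl library 2 lay nearest to the Sox2 cKO libraries. The log2 fold change was -0.51 (SE 0.11, adjusted p = 0.015 from edgeR) and -0.59 without Ctrl library 2. The adjusted p was 0.070, 0.0501 and 0.069 without Ctrl library 4, Ctrl library 6 and Sox2 cKO library 1, and the call was also lost with the length correction given below.

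Vim, the gene of vimentin, did not differ beyond the spread of the libraries. It lies on chromosome 2 from 13573927 to 13582826 (ENSMUSG00000026728, plus strand). Its level was 60.1, 69.4 and 65.4 CPM in Ctrl and 69.8, 59.9 and 66.0 CPM in Sox2 cKO. The highest and the lowest of the 6 values were both in Sox2 cKO. The log2 fold change was 0.01 (SE 0.09, adjusted p = 0.97 from edgeR), with a 95% interval of -0.19 to 0.20, and its sign depended on the fit, with -0.14 after the length correction and -0.05 without Ctrl library 2.

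The make-up of the glial filament transcripts within a library did not overlap between groups for Gfap, Vim and Synm. The summed FPKM of the 4 glial genes was 1088 ± 191 (SD, n = 3) in Ctrl and 564 ± 77.3 in Sox2 cKO. Gfap made up 94.5%, 94.2% and 95.7% of that sum in Ctrl and 92.0%, 90.6% and 90.3% in Sox2 cKO. The share of Vim was 2.68% ± 0.455 in Ctrl and 5.49% ± 0.298 in Sox2 cKO (SD, n = 3), and that of Synm was 2.12% ± 0.254 and 3.10% ± 0.602. Neither share overlapped between groups, whereas the share of Nes, 0.397% ± 0.0559 and 0.441% ± 0.0122, did. As ratios, Vim to Gfap was 0.0306, 0.0317 and 0.0225 in Ctrl and 0.0562, 0.0611 and 0.0637 in Sox2 cKO. This was a log2 difference of 1.11 without overlap, for which an exact two-sided permutation test gave p = 0.1, the smallest that 3 libraries against 3 allow (adjusted p = 0.14 over 7 ratios). Synm to Gfap differed by 0.60 on the log2 scale without overlap (exact permutation p = 0.1, adjusted p = 0.14), and Nes to Gfap differed by 0.22 with overlap (exact permutation p = 0.2, adjusted p = 0.233). Since Gfap is the denominator, these ratios carry its fall.

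**Figure D2:**
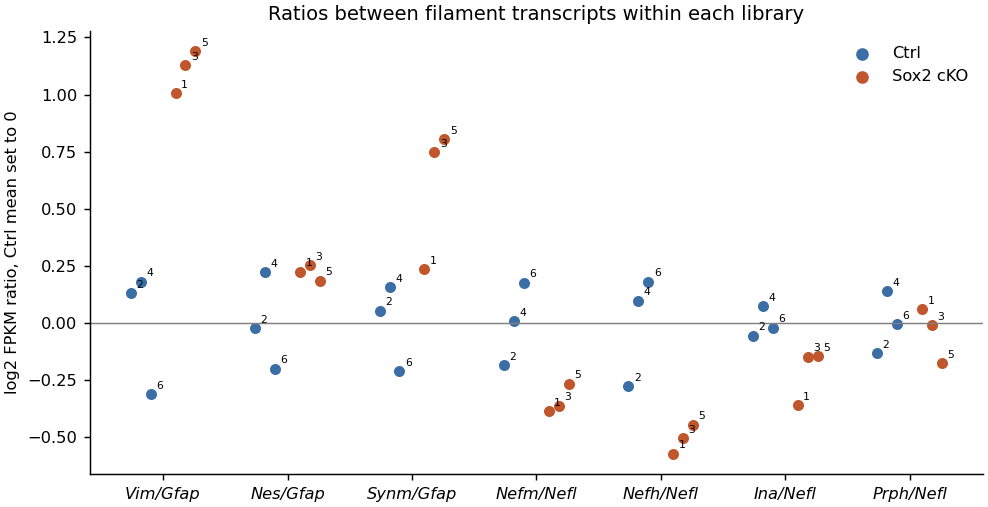
The vertical axis gives the log2 ratio of FPKM within each library, with the mean of the 3 Ctrl libraries set to 0, for 3 glial ratios over Gfap and 4 neuronal ratios over Nefl, and each point is 1 library with its number. The Sox2 cKO points lie above all Ctrl points for Vim/Gfap and Synm/Gfap and below them for Nefm/Nefl, Nefh/Nefl and Ina/Nefl.

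Of the neurofilament triplet, only the heavy subunit passed the test with edgeR. Nefh, the heavy subunit, fell to 73.0% of its Ctrl mean. It lies on chromosome 11 from 4938754 to 4948064 (ENSMUSG00000020396, minus strand) and had 1877, 2274 and 2445 CPM in Ctrl and 1589, 1555 and 1667 CPM in Sox2 cKO. The Sox2 cKO libraries were close together and all below Ctrl library 2, the lowest control. The log2 fold change was -0.45 (SE 0.11, adjusted p = 0.018 from edgeR) and -0.56 without Ctrl library 2. The adjusted p rose to between 0.059 and 0.080 when Ctrl library 4 or 6 or Sox2 cKO library 1 or 3 was left out, with fold changes of -0.37 to -0.45.

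Nefm, the medium subunit and the filament transcript of highest level, had 4035, 4308 and 4908 CPM in Ctrl and 3644, 3454 and 3803 CPM in Sox2 cKO. The groups did not overlap, but the gap between Ctrl library 2 and Sox2 cKO library 5 was smaller than the spread within controls. The log2 fold change was -0.28 (SE 0.10), which did not pass the test (adjusted p = 0.059 from edgeR). It passed with DESeq2 (adjusted p = 0.012), with a correction for GC content (adjusted p = 0.037) and without Ctrl library 2 (-0.34, adjusted p = 0.012 from edgeR).

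Nefl, the light subunit on which the others assemble, had 1595, 1490 and 1512 CPM in Ctrl and 1656, 1545 and 1590 CPM in Sox2 cKO. The ranges overlapped, and the log2 fold change was 0.06 (SE 0.08, 95% interval -0.12 to 0.24, adjusted p = 0.62 from edgeR) and 0.09 without Ctrl library 2. Nefl and Nefm lie side by side on chromosome 14 on opposite strands, Nefl (ENSMUSG00000022055, plus strand) from 68083863 to 68089095 and Nefm (ENSMUSG00000022054, minus strand) from 68082590 to 68124846. In GENCODE M21, 1108 exon bases of Nefl, or 32.8% of its exons, also belong to a long Nefm transcript. The kit kept the strand, but the strand setting of the counting is not given in the sources used here, so a part of the reads of one gene could have been counted for the other or left out.

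Relative to Nefl, the levels of Nefh, Nefm and Ina did not overlap between groups and that of Prph did, although 3 libraries against 3 allow no ratio to pass a permutation test. Nefh to Nefl was 0.996, 1.29 and 1.37 (FPKM ratio) in Ctrl and 0.812, 0.852 and 0.887 in Sox2 cKO, a log2 difference of -0.51. Nefm to Nefl was 2.32, 2.65 and 2.98 against 2.02, 2.05 and 2.20, a log2 difference of -0.34. Ina to Nefl was 0.233, 0.254 and 0.238 against 0.188, 0.218 and 0.219, a log2 difference of -0.22. None of these ratios overlapped between groups, and each had exact permutation p = 0.1 (adjusted p = 0.14 over 7 ratios), the smallest possible. Prph to Nefl overlapped between groups (log2 difference -0.04, exact permutation p = 0.7, adjusted p = 0.7). The summed FPKM of the 5 neuronal genes was 2277 ± 113 in Ctrl and 2076 ± 74.7 in Sox2 cKO (SD, n = 3). Of that sum, Nefl made up 19.3% ± 2.02 and 23.5% ± 0.737, Nefm 50.8% ± 1.39 and 49.2% ± 0.730, and Nefh 23.3% ± 1.59 and 20.003% ± 0.296, in the same order of groups.

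The remaining neuronal genes did not pass the test. Ina, the gene of alpha-internexin, lies on chromosome 19 from 47014698 to 47025327 (ENSMUSG00000034336, plus strand) and had 356, 364 and 346 CPM in Ctrl and 299, 323 and 333 CPM in Sox2 cKO. All Sox2 cKO values were below the controls, with a log2 fold change of -0.16 (SE 0.08, 95% interval -0.34 to 0.02, adjusted p = 0.17 from edgeR), also -0.16 without Ctrl library 2. Of the exon bases of Ina, 14.1% are shared with Nt5c2 on the other strand, which had between 1178 and 1748 counts a library against 6804 to 9471 for Ina. Prph, the gene of peripherin, lies on chromosome 15 from 99055174 to 99058978 (ENSMUSG00000023484, plus strand) and had 83.6, 94.3 and 86.6 CPM in Ctrl and 99.3, 88.2 and 80.9 CPM in Sox2 cKO. The extremes of Prph were both in Sox2 cKO, and the log2 fold change was 0.02 (SE 0.09, 95% interval -0.18 to 0.23, adjusted p = 0.88 from edgeR). Its sign turned in some fits (-0.02 without Ctrl library 2 and -0.17 after the length correction).

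Fold changes over all tested genes followed gene length (Spearman's rho = -0.48 across genes, which are not independent replicates), so each member was set beside genes of similar length. Gfap, with 2648 bases, had a log2 fold change of -1.11 where the 1615 genes nearest to it in length had a median of 0.09. Nes had -0.89 beside a median of -0.22, and Synm had -0.51 beside -0.32. Synm lay below the 25th percentile of its length class (-0.47), but nearer to its median than Gfap or Nes. Nefh had -0.45 beside -0.06 and Nefm -0.28 beside -0.03, whereas Vim (0.01 beside 0.14) and Prph (0.02 beside 0.19) were lower than the medians of their lengths. With a correction of each library for its own trend with length, edgeR called Gfap (-1.20, adjusted p = 0.010), Nes (-0.66, adjusted p = 0.020) and Nefh (-0.40, adjusted p = 0.028), and no longer Synm (-0.20, adjusted p = 0.073). That fit called 3 of the 9 genes and 13.1% of all genes (6.99% lower and 6.08% higher).

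**Figure D3:**
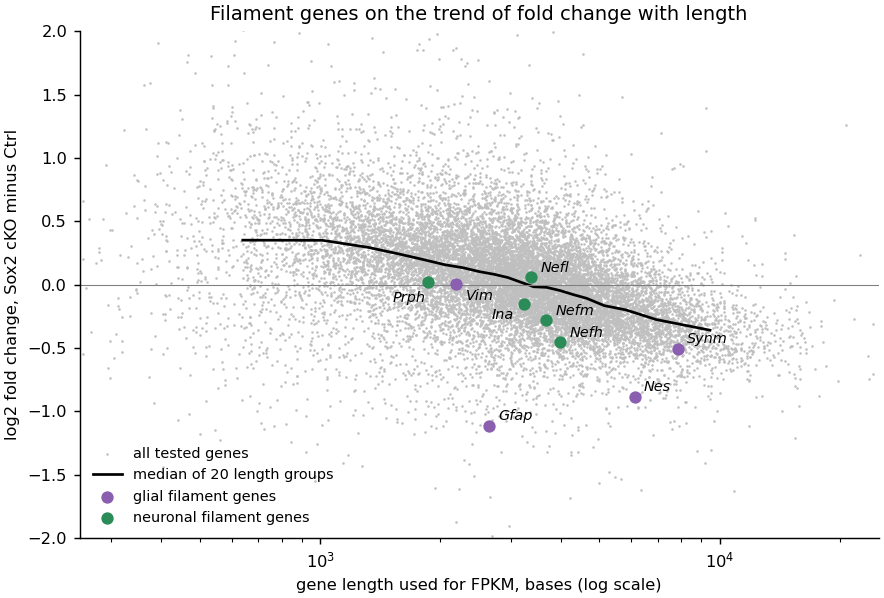
Each grey point is 1 tested gene, with gene length in bases on a log axis and the edgeR log2 fold change (Sox2 cKO minus Ctrl) on the vertical axis, 52 genes lie outside the axes, and the black line joins the medians of 20 groups of genes by length. Gfap and Nes lie far below the line, Synm lies closer below it at the long end, and Nefl lies slightly above it.

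**Figure D4:**
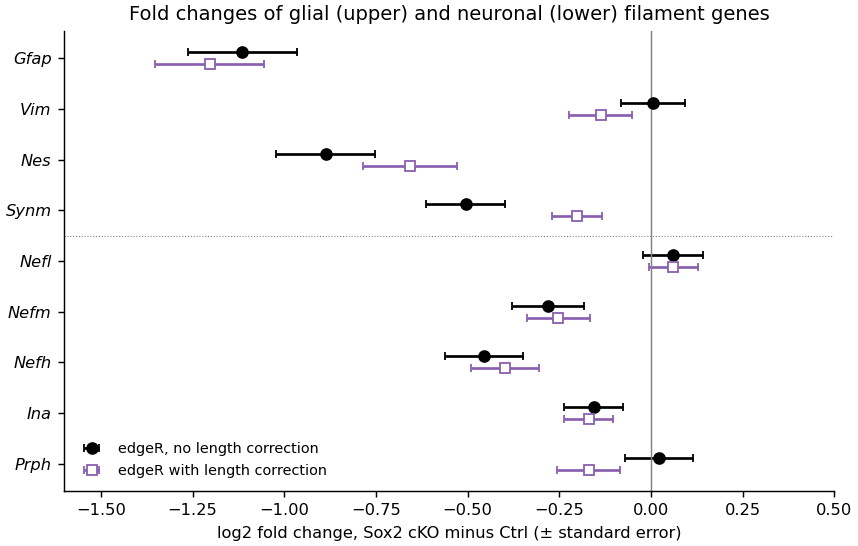
The horizontal axis gives the log2 fold change, Sox2 cKO minus Ctrl, of the 9 filament genes with its standard error, by edgeR without (filled circles) and with (open squares) the length correction. Gfap moved from -1.11 to -1.20, Nes from -0.89 to -0.66 and Synm from -0.51 to -0.20.

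Markers of the cell types that hold these filaments were examined beside them. Of 15 astrocyte markers outside the filament genes, 7 were lower and 1 was higher in Sox2 cKO (median log2 fold change -0.24 against 0.02 over all genes). Together they were 53.3% of the list, against 24.6% of all genes. Among the lower ones were Slc4a4, a bicarbonate transporter (-0.71, SE 0.12, adjusted p = 0.0125 from edgeR), the glutamate transporter gene Slc1a2 (-0.62, SE 0.12, adjusted p = 0.014) and the water channel gene Aqp4 (-0.44, SE 0.09, adjusted p = 0.015). The 1 higher marker was S100b (0.71, SE 0.18, adjusted p = 0.023 from edgeR), named after its value was seen. With the length correction 3 of the 15 were lower (Slc4a4, Aqp4 and Acsbg1, the last named after its value was seen) and 0 were higher, with Slc1a2 at -0.21 (adjusted p = 0.093 from edgeR) and S100b at 0.47 (adjusted p = 0.062). That fit called 13.1% of all genes. The summed level of the 15 was 10320 to 12521 CPM in Ctrl and 8685 to 8986 CPM in Sox2 cKO, so these markers moved with Gfap, Nes and Synm. Without Ctrl library 4 or Sox2 cKO library 1, edgeR called 0 of the 15 in each fit, with 9 at an unadjusted p below 0.05, and DESeq2 called 7 and 8. Over all genes, edgeR called 26 of 16373 and 8 of 16482 in these fits, with 4758 and 4945 at an unadjusted p below 0.05. In the same fits edgeR called no marker of the ependymal, precursor, endothelial, pericyte, neuron and motor neuron lists described next. The part of astrocyte number in the result was not tested.

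Nestin is also made by ependymal, endothelial and precursor cells, and vimentin by vessels and meninges. Of 6 ependymal markers, 1 was lower (Foxj1, -0.35, SE 0.09, adjusted p = 0.025 from edgeR), and their sum was 49.2 to 58.5 CPM in Ctrl and 43.8 to 46.8 CPM in Sox2 cKO. All 5 oligodendrocyte precursor markers were lower, against 12.4% of all genes, with a median log2 fold change of -0.67. These markers summed to 213 to 267 CPM in Ctrl and 123 to 180 CPM in Sox2 cKO. They included the matrix gene Tnr (-1.15, SE 0.23, adjusted p = 0.014 from edgeR), the proteoglycan gene Cspg4 (-0.67, SE 0.13, adjusted p = 0.013), the receptor gene Gpr17 (-0.87, SE 0.20, adjusted p = 0.018) and Pdgfra (-0.37, SE 0.10, adjusted p = 0.023). With the length correction 2 of the 5 were called, against 13.1% of all genes. Without Ctrl library 4 or Sox2 cKO library 1 all 5 had an unadjusted p below 0.05 while DESeq2 called 1 and 4. Of 7 endothelial markers, 1 was higher (Ly6c1, 1.09, SE 0.19, adjusted p = 0.0125 from edgeR), and of 8 markers of pericytes and smooth muscle, 1 was higher (the channel gene Kcnj8, 0.87, SE 0.22, adjusted p = 0.021) and 1 was lower (Cspg4, which is in both lists). Endothelial sums were 202 to 227 CPM in Ctrl and 214 to 307 CPM in Sox2 cKO, and pericyte sums were 225 to 259 CPM and 245 to 327 CPM. Sox2 cKO library 1, which had the highest Vim level (69.8 CPM), also had the highest endothelial and pericyte sums (307 and 327 CPM). Ctrl library 4 had nearly the same Vim level (69.4 CPM) at sums of 212 and 259 CPM. Meningeal fibroblast markers had sums of 131 to 332 CPM in Ctrl and 223 to 261 CPM in Sox2 cKO, with 0 of 6 called by edgeR or DESeq2 and 1 at an unadjusted p below 0.05. Ctrl library 6, the highest control for Gfap, Synm, Nefm and Nefh, had the meningeal sum of 131 CPM, against 332 and 309 CPM in Ctrl libraries 2 and 4. Without it edgeR and DESeq2 each called 3 of the 6, the collagen genes Col1a1, Col1a2 and Col3a1. They were lower in Sox2 cKO and were named after their values were seen. Among all genes, these fits called 1082 of 16552 (edgeR) and 2290 (DESeq2). By edgeR, 16.7%, 14.3% and 25% of the ependymal, endothelial and pericyte lists were called, against 24.6% of all genes. The part of any of these cell types in the filament levels was not tested.

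No general marker of neurons passed the test in the direction of Nefh, whereas 1 motor neuron marker did. Of 11 markers of neurons, 0 were lower and 2 were higher by edgeR, Uchl1 (0.76, SE 0.13, adjusted p = 0.0125) and Thy1 (0.32, SE 0.09, adjusted p = 0.032), and DESeq2 also called 0 lower. With the length correction Uchl1 (0.46, adjusted p = 0.023 from edgeR) and Snap25 (0.48, adjusted p = 0.040) were higher, and Thy1 was at 0.12 (adjusted p = 0.25). Their summed level was 4803 to 5896 CPM in Ctrl and 6003 to 6425 CPM in Sox2 cKO, the reverse of the order of Nefh, Nefm and Ina. Snap25, the largest part of that sum, had means of 2121 CPM in Ctrl and 2708 CPM in Sox2 cKO (adjusted p = 0.062 from edgeR). Syt1 (-0.03), Slc17a6 (-0.03), Gad1 (-0.01) and Slc6a5 (-0.10) had slightly negative log2 fold changes, and the other markers of the list had positive ones. These genes were named after their values were seen. Of 6 motor neuron markers, which label cells rich in neurofilaments and peripherin, 1 was lower (the acetylcholine transporter gene Slc18a3, -0.46, SE 0.13, adjusted p = 0.029 from edgeR), although its groups overlapped. It was also called with the length correction (-0.57, adjusted p = 0.029 from edgeR). The other motor neuron markers did not pass, among them Ache (0.18, SE 0.08) and Slc5a7 (0.03, SE 0.12). Motor neuron sums were 409 to 452 CPM in Ctrl and 421 to 437 CPM in Sox2 cKO. Markers of primary sensory neurons, whose axons and root ganglia are rich in peripherin, summed to 21.6 to 41.4 CPM and 23.8 to 30.0 CPM, led by Scn9a. Of 9 such markers, 5 were tested, and 0 were called by edgeR or DESeq2, with 0 at an unadjusted p below 0.05. Within that sum, single libraries stood apart. The sodium channel gene Scn10a, which is not among the 5, had 3.95 CPM in Ctrl library 4 and 1.66 CPM in Sox2 cKO library 5, against 0.0439 to 0.136 CPM in the other 4. Pirt was also highest in these libraries, with 4.95 and 3.06 CPM against 0.821 to 1.45 CPM. Both were named after their values were seen. Ctrl library 4 had the highest Prph level of the controls, whereas Sox2 cKO library 5 had the lowest Prph level of all 6. Schwann cell markers, Drp2 among them, summed to 67.8 to 110 CPM in Ctrl and 81.3 to 104 CPM in Sox2 cKO, with 0 of 5 called by edgeR or DESeq2 and 1 at an unadjusted p below 0.05. No list held a marker at 0 in all libraries. By edgeR, 18.2% and 16.7% of the neuron and motor neuron lists were called, against 24.6% of all genes. The part of neuron number in the neurofilament levels was not tested.

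Few other intermediate filament genes passed the test. Of 20 such genes (lamins, keratins and lens or muscle filaments), 14 were tested, 1 was lower and 1 was higher, or 14.3% against 24.6% of all genes. Krt10, a keratin of differentiated epidermis, had 2.27 ± 1.246 CPM in Ctrl and 6.08 ± 1.07 CPM in Sox2 cKO (SD, n = 3), a log2 fold change of 1.41 (SE 0.32, adjusted p = 0.017 from edgeR). Iffo2, the gene of a protein with a filament domain, had 28.7 ± 3.71 and 21.7 ± 0.490 CPM, a log2 fold change of -0.40 (SE 0.11, adjusted p = 0.025 from edgeR). With the length correction only Krt10 was called among the 14.

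Among genes of proteins that tie filaments to other structures, protect them or remove them, more genes were lower than higher. Of 17 tested, 8 were lower and 2 were higher (median log2 fold change -0.22), or 58.8% against 24.6% of all genes. Of the plakins, very large linker proteins, 5 of 6 were lower, with Dsp (desmoplakin) at -1.31 (SE 0.28, adjusted p = 0.015 from edgeR), Plec (plectin) at -0.74 (SE 0.16, adjusted p = 0.015) and Dst (dystonin) at -0.71 (SE 0.15, adjusted p = 0.015). Macf1 and Evpl were also called, whereas Ppl (periplakin) was at 0.04 (SE 0.29, adjusted p = 0.93). The dystrophin gene Dmd, another large linker, was at -0.22 (SE 0.10, adjusted p = 0.13) and did not pass. Dsp was at 2.55 ± 0.815 CPM in Ctrl and 1.04 ± 0.0994 CPM in Sox2 cKO, and Plec was at 309 ± 74.5 and 185 ± 19.6 CPM (SD, n = 3). The 2 higher genes encode small heat shock proteins that bind filaments, Hspb1 (0.52, SE 0.09, adjusted p = 0.0125 from edgeR) and, named after its value was seen, Cryab (0.34, SE 0.10, adjusted p = 0.033). Transcript models ran from 6277 bases (Ppl) to 24236 bases (Dst) for the 6 plakins and measured 930 bases for Hspb1 and 1185 bases for Cryab. With the length correction 2 of the 17 were lower and 0 were higher, where 13.1% of all genes were called.

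Kinases that phosphorylate neurofilament tails and motors that move them along axons went in both directions. Of 16 tested, 6 were lower and 1 was higher (median log2 fold change -0.12), or 43.8% against 24.6% of all genes. Dync1h1, the heavy chain of cytoplasmic dynein, had 1181 ± 326 CPM in Ctrl and 590 ± 53.8 CPM in Sox2 cKO (SD, n = 3), a log2 fold change of -1.002 (SE 0.18, adjusted p = 0.0125 from edgeR). The neurofilament kinase genes moved apart, Cdk5 to 0.63 (SE 0.12, adjusted p = 0.013 from edgeR) and Gsk3b to -0.72 (SE 0.16, adjusted p = 0.015). Kif3a, a kinesin-2 motor, was at -0.44 (SE 0.10, adjusted p = 0.015 from edgeR). These 4 genes were also called with the length correction, which left 4 lower and 2 higher genes among the 16. That fit called 13.1% of all genes.

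In the neighbouring skeleton of the axon, more genes were lower than higher. Of 18 tested, 9 were lower and 3 were higher (median log2 fold change -0.31), or 66.7% against 24.6% of all genes. Map1b, a microtubule-associated protein of growing axons, had 3365 ± 997 CPM in Ctrl and 1554 ± 266 CPM in Sox2 cKO, a log2 fold change of -1.11 (SE 0.21, adjusted p = 0.013 from edgeR). Map1a was at -0.76 (SE 0.15), and the spectrin genes Sptan1 and Sptbn1 at -0.53 (SE 0.11) and -0.50 (SE 0.10), with adjusted p from edgeR between 0.013 and 0.014. The third spectrin gene of the list, Sptbn4, was at -0.27 (SE 0.11, adjusted p = 0.082), with groups that overlapped, and at 0.07 with the length correction. The 3 higher genes, Stmn3 (0.45, SE 0.10), Tubb2a (0.37, SE 0.10) and Stmn2 (0.30, SE 0.09), were named after their values were seen. With the length correction, 6 of the 18 were lower and 0 were higher, where 13.1% of all genes were called. Map1b (-0.69) and Map1a (-0.34) were among the 6 while the spectrin genes were not. Across these 4 lists, edgeR called 31 of 65 tested genes, 36 of 66 without Ctrl library 2, and 0 without Ctrl library 4 or Sox2 cKO library 1. Over all genes, edgeR called 24.6% in the main fit and 6119 of 16590 without Ctrl library 2. It called 26 of 16373 and 8 of 16482 in the last fits. In those last fits 34 and 33 genes of the lists had an unadjusted p below 0.05, and DESeq2 called 22 and 29 of the genes of these lists.

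Over the 6 libraries, the members differed in how they moved together. The log2 CPM of Gfap had a Pearson correlation of 0.97 with Nes, 0.95 with Nefh, 0.94 with Nefm and 0.87 with Synm, and of 0.16 with Vim and 0.04 with Prph. Nefh had 0.97 with Nefm and -0.74 with Nefl. These values share the difference between the groups and the libraries themselves and are descriptive. Ctrl library 2 was the lowest control for 7 of the 9 genes, and Ctrl library 6 the highest for Gfap, Synm, Nefm and Nefh. Of 10116 genes with a mean of at least 10 CPM, the 5 with the pattern most like Gfap were Mcm3ap, Ap4e1, Ei24, Fam129a and Ptp4a2, with correlations of 0.991 to 0.997, and 788 genes reached 0.9. The 5 most like Nefm were Yars, Pigk, Kat5, Nsun2 and Eif3h, with correlations of 0.991 to 0.995, and 1017 genes reached 0.9, so that such a pattern was common among these libraries.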

How the data were processed

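Per the labels, RNA of 3 Sox2 cKO and 3 Ctrl spinal cords was selected with poly-T beads and made into directional libraries. Reads (single-end) were aligned by the authors to mm10 using STAR 2.5 and counted per gene using HTSeq 0.6.1, and the raw counts were deposited. They also deposited FPKM, made from these counts with gene length and library total. Columns carry numbers only. Their groups follow the numbering of mice on a blot in the paper, and the group means of 1999 genes in the study's gene table then matched these groups and not the exchanged ones (relative tolerance 0.0001). That table's fold changes were not used. There were 0 unused columns. The 15 pairs of libraries had a chi-square per degree of freedom of 6.74 to 83.4, so no library repeated another. Names, positions and exons came from GENCODE M21 (34490 of 35275 identifiers matched).

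The main test was that of edgeR 4.0.16 in R 4.3.3 (TMM, filterByExpr, quasi-likelihood, no covariates, adjusted p below 0.05, prior count 2 for log2 CPM). Within-library FPKM ratios were tested by exact two-sided permutation. Alternatives were DESeq2 1.42.0, upper quartile normalization, no filter, at least 10 counts in every library, limma 3.58.1 on log2(FPKM + 1) and log2(FPKM + 0.1) for a mean FPKM of at least 0.5, lowess corrections (span 0.3) for length and GC content, and leaving out each library. DESeq2 fits without a library were added after seeing the data. The fits were run on simulated data whose libraries varied less than these, so that run does not measure error rates here.

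The members, the 4 lists of filament-related genes and the 12 marker lists were chosen with earlier results of these data known. Named were the members, Sox2, up to 4 called genes of lowest adjusted p per list (where fewer than 2 were called, the 2 of highest mean CPM), and the 5 genes most correlated with Gfap and with Nefm. Eppk1 was not matched. Some genes that this rule selects are not reported here.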

Additional observations from a re-analysis of the deposited data

How the results depend on the processing

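The count of filament genes called by edgeR, 4 in the main setting, was between 0 and 5 when 1 library was left out, with 0 without Sox2 cKO library 1 (5 at an unadjusted p below 0.05), 1 without Ctrl library 4 and 2 without Ctrl library 6. DESeq2 called 5, 5 and 4 of the 9 in those fits, which were added after seeing the data. The count over all genes, 3970, was 2109 with the length correction, between 8 and 6119 without 1 library by edgeR, and between 1981 and 5624 by DESeq2 (1981 and 2290 without Ctrl libraries 4 and 6, and 2342 without Sox2 cKO library 1). By edgeR it was 8 of 16482 genes without Sox2 cKO library 1 and 26 of 16373 without Ctrl library 4. Without Ctrl library 6 it was 1082 of 16552. The 31 called genes of the 4 filament-related lists became 15 with the length correction and between 0 and 36 without 1 library. The number of filament ratios without overlap, 5, was 5 or 6 in its alternatives. Leaving out a library cannot create an overlap, so the count could not fall in those alternatives. Gfap, Nes, Synm, Nefh, Nefm, Nefl and Ina kept their direction in all 20 alternatives. The sign of Vim turned with DESeq2 (-0.0079), with the length correction (-0.14), in edgeR fits without Ctrl library 2 (-0.0489) and without Sox2 cKO libraries 1 (-0.0443) and 5 (-0.0037), and in DESeq2 fits without Ctrl libraries 2 (-0.0633) and 6 (-0.0047) and Sox2 cKO libraries 1 (-0.0560) and 5 (-0.0206). The sign of Prph turned with the length correction (-0.17), the GC correction (-0.0255), in edgeR fits without Ctrl library 2 (-0.0168) and Sox2 cKO library 1 (-0.0587), and in DESeq2 fits without Ctrl libraries 2 (-0.0315) and 6 (-0.0067) and Sox2 cKO library 1 (-0.0703). The lowest and highest of these were -0.0489 and 0.0633 for Vim and -0.0587 and 0.0883 for Prph over the edgeR fits without 1 library. The causes were not tested. With 1 library left out, a group keeps 2 libraries. No paired analysis was possible because the columns carry no replicate numbers.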

Other observations

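Among lists that no filament result rested on, 0 of 7 oligodendrocyte markers were called by edgeR, with 1 at an unadjusted p below 0.05, and DESeq2 called 2 lower. Their summed level was 31326 to 35095 CPM in Ctrl and 31670 to 34198 CPM in Sox2 cKO. Of 6 microglia markers, 0 were called by edgeR and DESeq2 called 2 lower. The unadjusted p from edgeR was below 0.05 for 3 of them, against 6391 of all 16137 genes. The microglia sums were 216 to 263 CPM in Ctrl and 175 to 225 CPM in Sox2 cKO.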
